A study of Caenorhabditis elegans with 2 samples.

Results

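The strong peaks of the X chromosome are those entries of a pooled ChIP-seq peak list that lie on X and have a signal of 18.1 or more. They were selected on that signal and numbered 326, of 2003 peaks past the same threshold in the genome and 30000 in the list. By its deposited label the list holds peaks and background, so an entry, here called a peak, need not be a binding site. The other 1677 lay on the autosomes I to V. ChIP-seq recovers and sequences the DNA that a protein is attached to. Here the protein was ZK546.5, carried with a GFP-FLAG tag at its C terminus by a stable transgenic line, strain OP231, whose genotype per the labels is unc-119(ed3) III with the insertion wgIs231. The single group was made of L4 larvae, the last larval stage, of both sexes pooled and taken as whole animals, in 2 biological replicates. There was no other strain, stage or treatment, so X is set against the autosomes within this group. Whole animals mix all tissues, and the labels name neither the promoter of the transgene nor the cells that express it.

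C. elegans hermaphrodites have a pair of X chromosomes and males have a single one. In hermaphrodites the dosage compensation complex, which contains a condensin, sits along both X chromosomes and lowers their transcription. The complex first loads at recruitment elements on X, many of which lie away from gene starts and carry a sequence known as MEX, for motif enriched on X. Its core is the word GCGCAGGG. No list of mapped recruitment elements was used here, so the word was searched as letters only, on both strands, in windows of 200 bp centred on each summit, the highest point of a peak.

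The word was in the windows of 12 X members, and these sequences are shown because, of the 14 shares tested between X and the autosomes, that of the core word had the odds ratio farthest from 1. Of the 12, 11 are given, oriented so that the word, in capitals, reads 5′ to 3′, with 16 bases on each side. The window near R04E5.9 is not shown, as it overlaps an untranslated region. Where a window held 2 copies, 1 is shown. Names are those of the protein-coding gene with the nearest annotated 5′ end, and sequence and positions are from the WBcel235 genome, the ce11 build of the lists.
W02H3.3, chrX:11094210-11094249, minus strand: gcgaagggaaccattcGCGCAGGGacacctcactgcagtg
Y41G9A.17, chrX:2997107-2997146, minus strand: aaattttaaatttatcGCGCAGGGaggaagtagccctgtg
nspc-17, chrX:14525884-14525923, minus strand: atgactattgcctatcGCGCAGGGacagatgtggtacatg
F20B6.9, chrX:4209250-4209289, minus strand: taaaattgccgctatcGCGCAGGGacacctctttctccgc
cest-16, chrX:6296560-6296599, plus strand: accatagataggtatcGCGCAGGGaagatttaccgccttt
xol-1, chrX:8036419-8036458, plus strand: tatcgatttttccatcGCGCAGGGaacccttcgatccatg
ins-39, chrX:1345040-1345079, plus strand: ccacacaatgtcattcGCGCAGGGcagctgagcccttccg
gtr-1, chrX:806658-806697, plus strand: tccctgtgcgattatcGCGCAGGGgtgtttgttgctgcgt
F22H10.2, chrX:16682156-16682195, minus strand: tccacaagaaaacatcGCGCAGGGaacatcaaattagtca
T24D8.6, chrX:2364883-2364922, minus strand: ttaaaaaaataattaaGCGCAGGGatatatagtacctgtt
col-185, chrX:13514542-13514581, plus strand: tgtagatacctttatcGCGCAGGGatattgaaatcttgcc
Most of these copies also share the letters just before the core. The pair TC stood there in 12 of the 16 copies in the windows of X members, against 19 of all 81 copies on X and 6 of 233 copies on the autosomes. The longer ATC preceded 10 of the 16 copies, 13 of the 81 and 2 of the 233. Another X peak, near T27A8.7, lacks the exact core but matched the 12-letter MEX consensus with 1 mismatch, and its match is shown in capitals.
T27A8.7, chrX:16056634-16056673, minus strand: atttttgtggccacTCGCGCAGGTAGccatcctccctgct

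Signal is the authors' own value per peak and chose the members, so it is given as a description. Among X members it ran from 18.12 to 796.8 with a median of 21.18, and among autosomal strong peaks from 18.1 to 1668.1 with a median of 21.28. Of the pooled peaks of X, 6.36% passed the threshold, against 6.74% of those on the autosomes. X had 18.4 strong peaks per Mb, between the 14 per Mb of chromosome V and the 20.29 to 25.34 per Mb of I to IV. The medians lay close together. A signal of 100 or more was reached by 4 X members (1.227%) and 54 autosomal peaks (3.22%), 3 of them on V, and one of 50 or more by 7.975% of X members and 7.096% of autosomal peaks. Most members sit near the threshold, and 247 of the 326 were under 25. Just inside it were peaks near C02F12.8 at 18.15, F23D12.7 at 18.13 and nhx-5 at 18.12. Just outside it were X peaks near Y72A10A.1 at 18.09, scd-1 at 18.05 and C05D9.3 at 18.04.

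**Figure D1:**
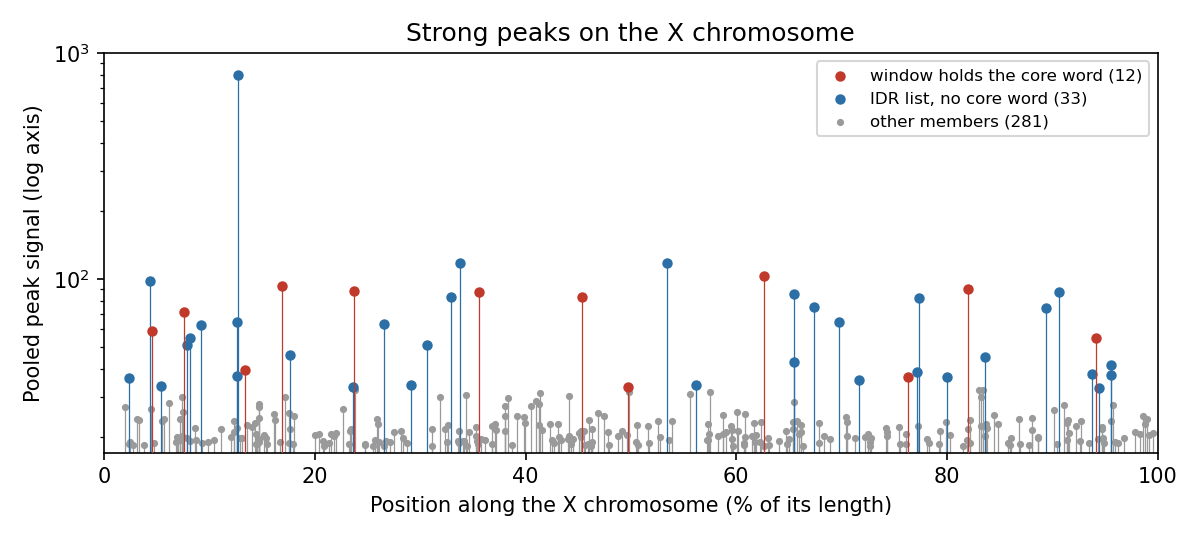
Signal of each of the 326 X members on a log axis against its position in percent of the chromosome's length, with members whose 200 bp window holds the core word in red, other members of the IDR list in blue and the rest in grey. The 12 red peaks are spread along the chromosome and all belong to the 45 strongest, and 1 peak, near rpl-11.2, stands at 796.8.

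The strongest member, at chrX:2242808-2243161 with a signal of 796.8, had its summit 369 bp upstream of rpl-11.2, which encodes ribosomal protein L11. It ranked 13 in the replicate 1 list and 8 in the replicate 2 list. The next was at 117.3, chrX:5984677-5984830, 218 bp upstream of klp-13, a kinesin-like gene. The third, chrX:9465666-9466009, was almost as high at 117.2 but lay in intergenic sequence, 2493 bp downstream of the nearest coding 5′ end, that of ZK899.6, and 1880 bp from the non-coding gene ZK899.10. The fourth, at 102.8, was the W02H3.3 peak. After these 4 no X member reached 100.

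Of the 25 strongest X peaks, 20 had an intergenic summit and 8 had a coding 5′ end within 500 bp. Those 8 were near rpl-11.2, klp-13, trap-2 (97.41, a subunit of the translocon-associated complex of the endoplasmic reticulum), puf-9 (83.16, a Pumilio-family RNA-binding protein), serp-1.1 (74.08), vha-15 (64.52, a subunit of the vacuolar proton ATPase), glit-1 (63, a gliotactin homologue) and zfp-3 (54.77, a zinc finger protein). The other 17 were farther off, and 9 of these 17 held the core word, or 10 with the T27A8.7 peak. None of the 8 near a coding 5′ end held it. The remaining 7 were the peaks near ZK899.6, ftt-2 (85.95, a 14-3-3 protein), K02D3.1 (82.49), F55G7.5 (75.27), F19H6.5 (64.49), fbxb-58 (62.21) and C41A3.2 (50.93). The summit near C41A3.2 was 15070 bp from that gene's 5′ end and lay in a coding exon of pks-1, a polyketide synthase gene. The word was scored in the 200 bp windows only. Outside them, a copy at chrX:5429590-5429597 straddles the end of the C41A3.2 peak. Another, at chrX:12363039-12363046, lies just before the start of the F19H6.5 peak.

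The 12 peaks with the core word had signals of 33.07 to 102.8. The peak near W02H3.3 had 102.8 and 2 copies, and its summit was 36 bp from the nearer one. The Y41G9A.17 peak, in an intron of that gene, had 93.26, and its summit was 10 bp from the word. Then came peaks near nspc-17 (90.59), F20B6.9 (88.44) and cest-16 (87.82), a gene of the carboxylesterase family. The cest-16 peak lay 3341 bp upstream of that gene, in an intron of mom-1, whose product acts in Wnt secretion. The peak at 82.65 lay in intergenic sequence 4888 bp upstream of xol-1, the switch gene that promotes male development in XO animals. A tRNA gene, WBGene00022939, had its 5′ end 332 bp from the same summit. The rest were near ins-39 (71.35, insulin-like), gtr-1 (58.98), F22H10.2 (54.81), T24D8.6 (39.28), col-185 (36.87, a collagen gene) and R04E5.9 (33.07). Of the 12 summits, 9 lay over 1000 bp from any coding 5′ end, and the R04E5.9 summit was the exception within 500 bp, in a 5′ UTR.

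Across all strong peaks, the core word was in 12 of 326 X windows (3.681%, 95% Wilson interval 2.118 to 6.323%) and in 1 of 1677 autosomal windows (0.05963%). By Fisher's exact test, two-sided as throughout, the odds ratio was 64.05, with a Benjamini-Hochberg adjusted p of 2.26e-08 over 14 tests. Peaks are not replicates, so this p describes these peaks of 1 pair of cultures. The single autosomal peak, chrV:10169040-10169383 with a signal of 20.97, lay in the 3′ UTR of egl-3 and ranked 10611 in replicate 1 and 22237 in replicate 2. The word itself is rarer off X: 0.08691% of all 200 bp tiles of X hold it, against 0.05378% of autosomal tiles. Among peaks with no coding 5′ end within 500 bp, a comparison added later, the counts were 11 of 238 on X and 1 of 937 on the autosomes (odds ratio 45.36, Fisher's exact p = 1.92e-07).

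Seen from the copies rather than the peaks, 16 of 81 copies on X (19.75%, 12.54 to 29.7%) had a strong summit within 100 bp, against 1 of 233 autosomal copies (0.4292%). The odds ratio was 57.11 (Fisher's exact p = 1.57e-09, added later). Copies in the same window share a peak, so the 16 are not independent. Counting pooled peaks of any signal, 26 copies on X (32.1%) and 15 on the autosomes (6.438%) had a summit within 100 bp. Most copies on X had no pooled summit within 100 bp, though a copy can lie within a peak and farther from its summit.

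**Figure D2:**
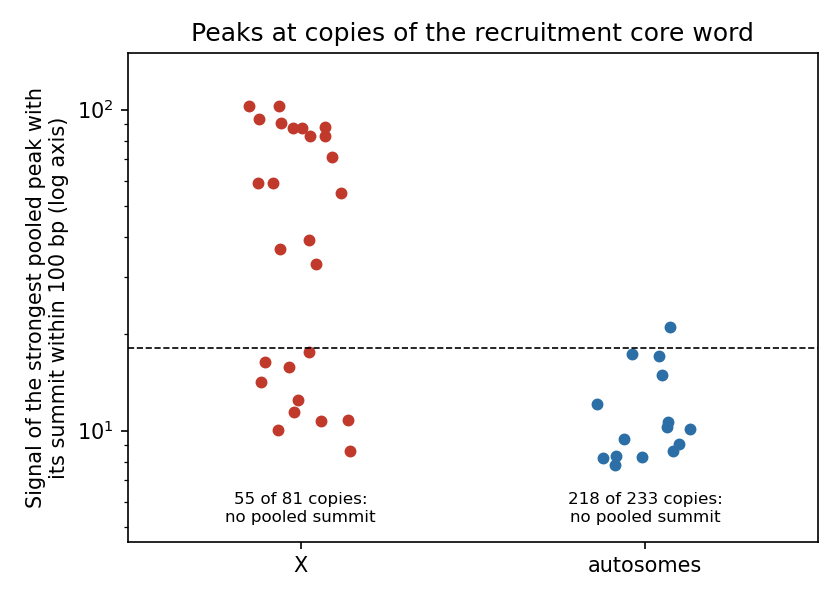
Each point is 1 copy of the core word with a pooled summit within 100 bp, on X at the left and on the autosomes at the right, and the log axis gives the signal of the strongest such peak. On X 16 copies lie above the dashed threshold of 18.1, against 1 on the autosomes, and copies with no pooled summit are counted below the points.

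The 12-letter MEX consensus, scored by mismatches, gave 11 X windows and 0 of 1677 autosomal windows with at most 1 mismatch, of which the X windows near W02H3.3 and Y41G9A.17 matched in full. For W02H3.3 the full match is at the copy that is not shown above. At most 2 mismatches were found in 16 X windows (4.908%) and 10 autosomal ones (0.5963%). In weaker pooled peaks, at most 1 mismatch occurred in 2 of 4800 X windows and 3 of 23197 autosomal windows. The core word was in 10 of those 4800 X windows (0.2083%) and 13 of those 23197 (0.05604%). The odds ratio between strong and weaker peaks was 17.2 times higher on X than on the autosomes. This interaction was fitted later, and its adjusted p was 0.01804 by Zelen's exact test of equal odds ratios but 0.05318 by a logistic fit, so its call depends on the test.

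None of the other 6 words passed in the main comparison. The tests of these words were chosen with earlier results of these data known. Their p-values, in the main comparison and in the alternative runs, therefore describe these peaks and are not an independent test of a difference on X. ACCGTA was in 15 X windows (4.601%) and 137 autosomal windows (8.169%), an odds ratio of 0.5422 (Fisher's exact test, adjusted p = 0.08158), against 4.654% of X tiles and 5.622% of autosomal tiles. It was lower on X and passed without replicate 2 (odds ratio 0.4966, exact test, adjusted p = 0.02788), without chromosome V (0.508, exact test, adjusted p = 0.03365) and in 100 bp windows (0.3915, exact test, adjusted p = 0.04206). Of all 15 X members with ACCGTA, 6 had a coding 5′ end within 500 bp, beside 26.99% of all X members. Of the 25 strongest X peaks 4 held it, and all 4 were among the 8 near a coding 5′ end: those of rpl-11.2, trap-2, serp-1.1 and glit-1. The first 2 windows are printed on the plus strand because they are high X peaks near coding 5′ ends that lack the core word, with ACCGTA or its reverse complement in capitals.
rpl-11.2, chrX:2242887-2243086: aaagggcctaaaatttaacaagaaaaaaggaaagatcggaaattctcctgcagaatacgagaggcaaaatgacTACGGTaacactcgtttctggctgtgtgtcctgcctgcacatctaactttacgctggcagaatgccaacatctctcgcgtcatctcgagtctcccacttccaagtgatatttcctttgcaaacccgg
trap-2, chrX:768163-768362: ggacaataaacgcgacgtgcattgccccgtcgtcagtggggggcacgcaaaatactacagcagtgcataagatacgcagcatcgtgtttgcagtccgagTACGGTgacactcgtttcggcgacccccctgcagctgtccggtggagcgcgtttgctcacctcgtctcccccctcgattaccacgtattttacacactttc
GCGCAC was in 7.975% of X and 9.6% of autosomal windows and TGCGTCTC in 4.294% and 5.605%, each with an adjusted p of 0.5356 by the same exact test. GAGAGAGA was in 6.135% of X and 6.023% of autosomal windows (exact test, adjusted p = 0.9685). TGATAA, the core bound by GATA factors, was in 14.72% of X and 14.31% of autosomal windows (exact test, adjusted p = 0.9685). The E-box CACGTG was in 3.988% of X and 4.174% of autosomal windows (exact test, adjusted p = 1). For these 5 words the intervals of X and the autosomes overlapped, and a missed threshold does not show that the shares are equal. Windows with at least 40% GC made up 41.41% on X and 37.33% on the autosomes (exact test, adjusted p = 0.2982).

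X members lay near gene starts less often than autosomal strong peaks. A coding 5′ end stood within 500 bp of 88 X summits (26.99%, 22.46 to 32.06%), against 740 autosomal summits (44.13%, 41.77 to 46.51%). The odds ratio was 0.4682 (Fisher's exact test, adjusted p = 2.86e-08). With the 5′ ends of genes of any type, the shares were 39.57% on X and 56.53% on the autosomes (odds ratio 0.5036, exact test, adjusted p = 7.19e-08). The median distance to a coding 5′ end was 1224 bp on X and 687 bp on the autosomes. The share on X was below that of each autosome, where it ran from 41.3% on V to 48.95% on I.

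The shares were farther apart at divergent promoters, where 2 genes start back to back. A summit between divergent coding 5′ ends, each within 1000 bp, was found for 5 X members (1.534%) and 222 autosomal peaks (13.24%), an odds ratio of 0.1021 (exact test, adjusted p = 1.75e-11). The 5 X peaks were near trap-2 (97.41), glit-1 (63), rab-14 (24.13), nmat-1 (22.94) and C27C12.4 (21.8), the last 3 named after their values were seen. The C27C12.4 peak had no summit within 100 bp in either replicate list, and the others had one in both. The trap-2 summit was 333 bp upstream of ile-2, and that of glit-1 358 bp upstream of dnj-14, a DnaJ-type chaperone gene.

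Coding genes are sparser on X, and the part of this in the lower shares was not tested. X carries 154.1 coding genes per Mb, against 187.6 to 238.7 on the autosomes. Of its bases 18.77% are within 500 bp of a coding 5′ end, against 24.12% of autosomal bases. Between divergent coding 5′ ends lie 0.5602% of X bases and 1.981% of autosomal bases. Among weaker pooled peaks the coding 5′ end share was 21.1% on X and 26.85% on the autosomes. The odds of a coding 5′ end were thus 1.382 times higher in strong than in weaker peaks on X and 2.152 times higher on the autosomes. The ratio of these, the interaction fitted later over all pooled peaks, was 0.6424 (Zelen's exact test, adjusted p = 0.01025). For 5′ ends of any gene it was 0.6322 (Zelen's exact test, adjusted p = 0.004651). For divergent 5′ ends it was 0.395 and did not pass (Zelen's exact test, adjusted p = 0.2055), with 35 weaker X peaks in that class (0.7292%) and 641 autosomal ones (2.763%).

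**Figure D3:**
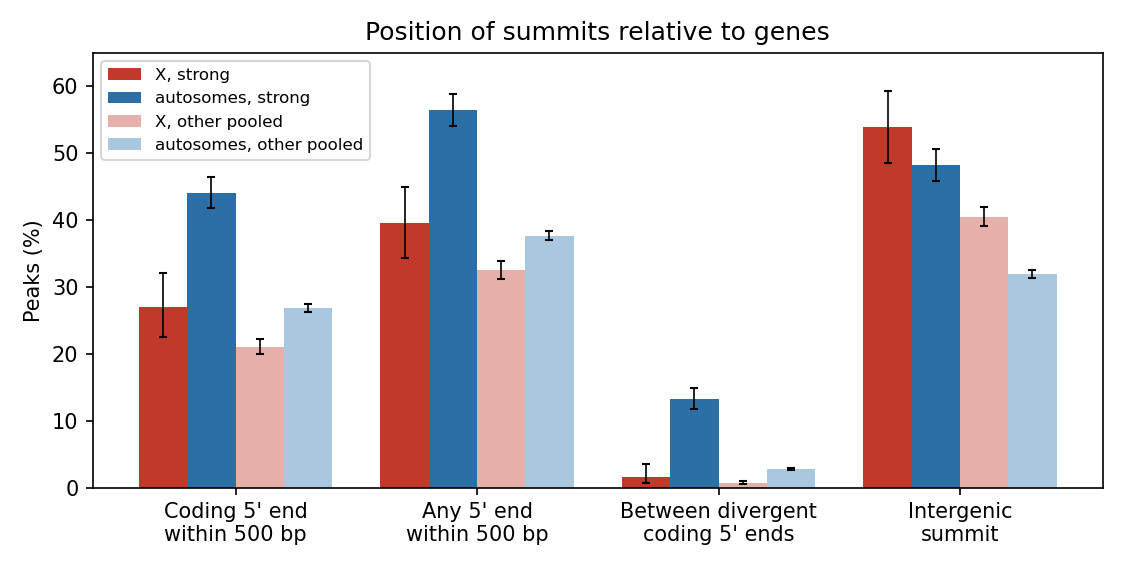
Share of peaks, in percent with 95% Wilson intervals, for X and autosomal strong peaks and for the other pooled peaks of X and the autosomes. The X bar stands below the autosomal one for coding 5′ ends (26.99% and 44.13%) and divergent 5′ ends (1.534% and 13.24%) in strong peaks. In percentage points both gaps are wider in strong peaks than in the others, though the interaction on odds did not pass for divergent ends. Intergenic shares of strong peaks were 53.99% and 48.3%.

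By the annotation at the summit, 176 X members were intergenic (53.99%), 72 in an intron, 26 in a coding exon, 24 in a 3′ UTR, 21 in another exon and 7 in a 5′ UTR. On the autosomes 48.3% were intergenic, 25.22% in an intron and 11.75% in a coding exon. None of these 3 shares passed, with adjusted p of 0.1218 for intergenic, 0.4067 for intron and 0.1218 for coding exon summits by the exact test. From the strongest peaks of a single replicate list, the intergenic share was higher on X and passed, with an odds ratio of 1.323 without replicate 1 (exact test, adjusted p = 0.0491) and 1.407 without replicate 2 (exact test, adjusted p = 0.01607). Intergenic sequence makes up 40.96% of X bases and 31.64% of autosomal bases, and the part of this in the comparison was not tested. Of weaker peaks 40.54% on X and 31.97% on the autosomes were intergenic. The interaction of the intergenic share with strength was 0.8654 and did not pass (Zelen's exact test, adjusted p = 0.5974). The coding exon share was lower on X and passed without replicate 1 only, with an odds ratio of 0.6088 (exact test, adjusted p = 0.02857). Summits that were both intergenic and over 1000 bp from a coding 5′ end made up 27.91% of X members (23.32 to 33.02%) and 16.88% of autosomal peaks (15.16 to 18.74%), a description chosen later. The nearest 5′ end of any gene belonged to a non-coding RNA of the class ncRNA at 29.45% of X members and 13.66% of autosomal peaks. How many such genes X and the autosomes hold, and the share in weaker peaks, were not set against this. Windows at least 50% soft-masked as repeats made up 15.34% on X and 27.43% on the autosomes, and the part of repeats in the comparison was not tested.

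Members differed along the order of signal, in ranges chosen after the values were seen. The 45 strongest X members, at 32.92 and above, were 71.11% intergenic, 33.33% of them had a coding 5′ end within 500 bp, and they held all 12 core windows (26.67%). Ranks 46 to 150 were 57.14% intergenic with 37.14% near a coding 5′ end, and the 176 below were 47.73% intergenic with 19.32%. Neither lower range held the word in its 200 bp windows, and wider windows were not run. A copy at chrX:16202519-16202526 lies within a member of signal 22.92 but outside its window. The same 45 were the X members in the IDR list, described below, so on X that list was also a cut on signal. Among autosomal strong peaks in that list 54 of 268 (20.15%) lay over 1000 bp from a coding 5′ end, below the 21 of 45 on X (46.67%, odds ratio 3.468, Fisher's exact p = 0.000279, added later). Over all strong peaks these shares were 54.91% on X and 41.8% on the autosomes. Both IDR shares were thus below those of all strong peaks, the autosomal one by more.

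Presence in the replicate lists is described without a test, since the pooled list was made from both replicates. A summit within 100 bp stood in the replicate 1 list for 68.71% of X members and 71.74% of autosomal peaks, and in the replicate 2 list for 82.82% and 77.52%. Both lists held 180 X members (55.21%, 49.79 to 60.52%) and 897 autosomal peaks (53.49%, 51.1 to 55.86%). Neither held 12 X members and 71 autosomal peaks. Among the 2003 strongest peaks of both replicates were 43 X members (13.19%) and 244 autosomal peaks (14.55%). The irreproducible discovery rate (IDR) is a measure of how far ranks agree between replicates. The list thresholded on it overlapped 45 X members (13.8%, 10.48 to 17.97%) and 268 autosomal peaks (15.98%, 14.31 to 17.81%). The intervals of X and the autosomes overlap for both measures.

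Of the 45, 40 were in both replicate lists. The exceptions include the ftt-2 peak, which ranked 85 in replicate 1 and had no summit within 100 bp in replicate 2, and the K02D3.1 peak, which ranked 65 in replicate 2 and had none in replicate 1. The ftt-2 peak overlaps a second ftt-2 member of signal 42.98 that ranked 271 and 92 in replicates 1 and 2. All 12 core peaks were in both lists. The first 9 of them ranked between 60 and 179 in replicate 1 and between 67 and 277 in replicate 2. The last 3 were less even: T24D8.6 ranked 812 and 156, col-185 ranked 199 and 6404, and R04E5.9 ranked 991 and 2625.

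**Figure D4:**
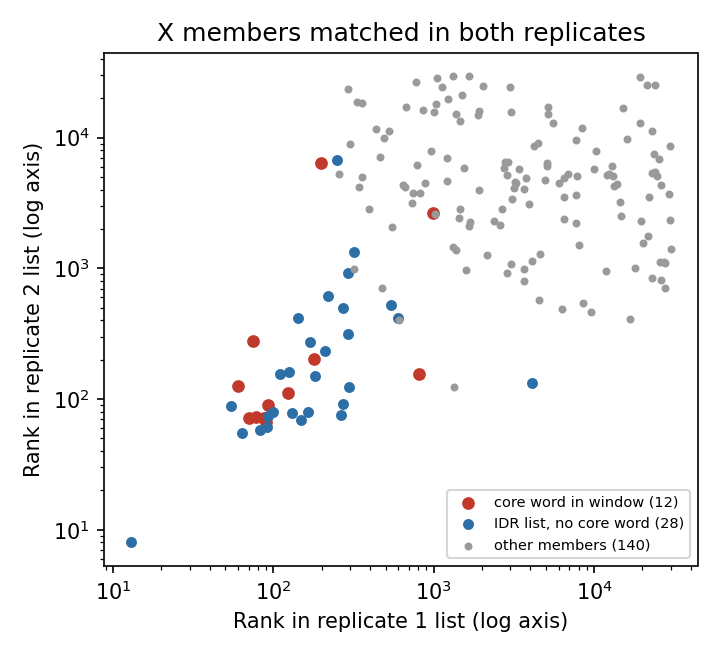
Rank in the replicate 2 list against rank in the replicate 1 list, both on log axes, for the 180 X members with a summit within 100 bp in both lists, where rank 1 is the strongest. Most core peaks (red) lie among the first 300 of both lists, while the 140 members outside the IDR list (grey) scatter widely.

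Along the chromosome, cut into 3 equal parts, there were 111 (34.05%), 120 (36.81%) and 95 (29.14%) members, beside the 32.97%, 33.57% and 33.46% of all pooled X peaks. The IDR members numbered 20, 9 and 16 in these parts and the core peaks 5, 4 and 3. Full 1 Mb bins held 9 to 28 members, with the highest count between 2000001 and 3000000. The median gap between neighbouring summits was 34562 bp. Joined at gaps of up to 10000 bp, 114 members fell into 51 clusters and 212 stood alone. The 2 largest clusters were both in that bin of 28. One, of 4 members between 2234095 and 2242987, holds the peaks near T14F9.2 (21.88) and vha-15 (64.52) and ends at rpl-11.2. The other, of 5 members between 2598943 and 2606844, has 4 summits in introns of nhr-40, a nuclear hormone receptor gene, at 27.97, 26.97, 18.96 and 19.46, and 1 upstream of T03G6.1 (24.13). No member of the nhr-40 cluster was in the IDR list.

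Gene lists, defined by symbol or gene type, were counted without a test. Of the 2731 coding genes of X, 92 (3.37%) had a 5′ end within 500 bp of a member, against 897 of 17242 autosomal coding genes (5.2%). Of 2 ribosomal protein genes on X, 1 was near a member, rpl-11.2. Of 3 translation factor genes it was 1, eef-1A.2 (30.17, elongation factor 1-alpha), whose peak ranked 331 and 18645 in replicates 1 and 2. Of 5 chaperone genes it was 2, dnj-14 (63) and hsp-3 (30.69, the endoplasmic reticulum Hsp70). X has no gene of the respiratory chain list. That list takes only the symbol prefixes cox, atp, nuo and cyc, so respiratory chain genes with other symbols are not in it.

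Lists of regulators hold only genes with certain symbol prefixes, and factor genes with other names are not in them. By that rule 3 of 60 genes of the transcription factor families were near a member (5%). The 3 were nuclear hormone receptors, nhr-40 (27.97), nhr-1 (22.66) and nhr-48 (20.02), of 23 on X. In replicate 2 the nhr-40 peak of 27.97 and the nhr-1 peak had no summit within 100 bp. None of 18 homeobox genes with the symbol ceh was near a member. The 6 genes of the X-signal and dosage compensation list, among them xol-1, also had none within 500 bp. The list of neuronal symbols, which takes in all unc and egl genes whatever their tissue, had 2 of 54 near a member. They were unc-18 (19.35, needed for synaptic vesicle release) and egl-17 (18.44), which encodes a fibroblast growth factor that guides sex myoblasts and is not a neuronal gene by that role. A member was near 1 of 27 ligand-gated channel genes, lgc-41 (21.07, ranked 23509 and 7460 in replicates 1 and 2). None of 5 vitellogenin, 29 collagen or 9 body wall muscle genes was. Among the coding genes of X, zfp-3 and nhr-40 each had 2 members within 500 bp of their 5′ ends, and no other coding gene did. The tRNA genes WBGene00014416 and WBGene00014417 shared a pair of members, the stronger at 18.89. The second zfp-3 peak, at 19.22, lay in the gene's 3′ UTR.

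Small RNA genes were reached at mixed shares. Of 276 tRNA genes on X, 18 (6.522%) had a 5′ end within 500 bp of a member, at 16 peaks. The highest were WBGene00022939 at the xol-1 peak (82.65), WBGene00000308 (38.63), WBGene00023117 (36.44) and WBGene00022947 (31.53). Those 16 peaks were 4.908% of X members (3.043 to 7.823%), against 13 autosomal strong peaks (0.7752%, 0.4536 to 1.322%), and how many tRNA genes the autosomes hold was not set against this. Of 74 miRNA genes 3 were near a member, cel-mir-54, cel-mir-55 and cel-mir-55b, at 1 peak of 21.93. Of 33 snoRNA genes 3 were, of 162 piRNA genes 2, and of 3 snRNA genes none.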

How the data were processed

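The deposited files are peak lists in ce11 and ce10. Each gives a signal value per peak, made by the authors, whose scaling the sources used here do not state, and no column of reads, so the depth is unknown. Aligner and peak caller: not given in the sources used here. Per the deposited README files, the pooled list was made from both replicates and each replicate list from 1 replicate. Reads of the control were not analysed here. The ce11 lists were read with the WBcel235 genome and Ensembl release 115 genes. Summits were start plus the last column, printed 1-based. A list match was a summit within 100 bp, and presence in the IDR list was an overlap of 1 bp or more.

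Members, lists and tests were chosen with earlier results of these data known. Shares were compared by two-sided Fisher's exact tests (scipy 1.17.1), adjusted by the Benjamini-Hochberg method over 14 tests with 0.05 as the threshold, and interactions by logistic regression (statsmodels 0.14.6) and by Zelen's exact test, each adjusted over the same 14. Intervals are 95% Wilson intervals, which cover the counting of peaks only. The tests ran first on simulated data. Genes named are those of the 25 strongest X peaks, the 3 nearest the threshold on each side, up to 4 list genes of highest signal, and genes with 2 members. Others, those of weaker core peaks, the autosomal core peak, divergent 5′ ends, clusters and hosts of summits, were named after their values were seen. Annotated 5′ ends of trans-spliced genes can lie inside the primary transcript.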

Additional observations from a re-analysis of the deposited data

How the results depend on the processing

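Of 107 recomputed values, 90 kept their direction and their side of the threshold or stayed within their interval. The coding 5′ end, any 5′ end, divergent and GCGCAGGG comparisons passed in every alternative run for them. These were signal of 25 or more, IDR peaks alone, autosomal peaks no stronger than the highest X peak, autosomes without V, each replicate list alone, other distances or 100 bp windows, and for the core word 2 subsets chosen after seeing the data. On X the IDR peaks were the 45 of highest signal, so that setting was also a cut on signal. Odds ratios that became significant were those of intergenic summits with either replicate left out (1.323 to 1.407), coding exons (0.6088 without replicate 1, 0.8585 and not passing without replicate 2) and ACCGTA (0.508 without V, 0.3915 in 100 bp windows, 0.4966 without replicate 2, and 0.6606, not passing, without replicate 1). Comparisons that never passed crossed 1 in 8 cases. These were introns at 25 or more (1.061), GC among IDR peaks (0.8973) and between 0.9804 and 1.051 with 1 replicate left out, GAGAGAGA without V (0.951), TGATAA at 25 or more (0.8568), in 100 bp windows (0.8908) and between 0.938 and 1.048 with 1 replicate left out, and CACGTG between 0.4855 and 1.142 with 1 replicate left out. Presence in both replicate lists was 36.2% within 50 bp and 70.55% within 200 bp, and X made up 14.36% of strong peaks at 25 or more. The cause was not tested. No paired analysis was possible because there was 1 group.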
